A study of Mus musculus with 30 samples.

Results

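The mRNAs of 5 families of splicing factors were examined in mouse spermatogonial stem cell (SSC) lines, in which both their levels and their half-lives were measured. Members were every gene whose symbol begins with Srsf and a digit, with Hnrnp, with Sf3a or Sf3b and a digit, with Snrp (Snrpn left out) or with Prpf and a digit, without pseudogenes. This gave 64 of the 14558 genes in the tables, which were 11 SR protein genes (Srsf), 11 core snRNP genes (Snrp), 20 hnRNP genes, 9 SF3 genes and 13 PRPF genes. Of these 64, 56 had an RNA-seq level, 55 had a half-life and 47 had both.

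SSC lines are cultures of the stem cells of the male germline, grown on mouse embryonic fibroblast feeders, and these lines were derived from postnatal day 7 testes of Nanos2TAG mice on a mixed background with DBA/2J. Line 4 was Nanos2TAG/+ and line 5 was Nanos2TAG/TAG. Both carried at least 1 allele of Nanos2, an RNA-binding protein gene of undifferentiated spermatogonia, with V5, Myc, PreScission, His and EGFP sequences added at the N terminus, so neither line lacked NANOS2. RNA-seq gave 1 library per line, and SLAM-seq, in which 4-thiouridine marks RNA made before a chase and the loss of marked reads is followed, gave 12 libraries per line, from which the authors fitted 1 half-life per transcript. Each genotype was 1 line, so genotype and line cannot be told apart. For RNA-seq the labels name feeder depletion, with QIAzol for the Nanos2TAG/+ RNA and Trizol for the Nanos2TAG/TAG RNA, whereas the study's methods name sorted cells and QIAzol alone, so by the labels the reagent differed with the line as well. For SLAM-seq the labels name Trizol in both lines. No difference was tested, since there was 1 value per gene and line. Where a pair of values follows, the Nanos2TAG/+ line comes first.

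The spliceosome is built on small nuclear ribonucleoproteins (snRNPs), in which a ring of Sm proteins is wrapped around each spliceosomal RNA and subunits particular to U1 or U2 are added. SF3a and SF3b are parts of the U2 snRNP that hold it at the branch point, and PRPF proteins act mostly in the U4/U6.U5 tri-snRNP and in later steps. SR proteins bind exons and recruit this machinery, and hnRNPs coat nascent RNA and often oppose exon use. Many SR protein genes carry alternative exons with early stop codons, and transcripts with such exons are degraded by nonsense-mediated decay.

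RNA-seq levels were given as FPKM (reads scaled to transcript length and to 1 value per library), and 10931439 and 11627842 whole reads were recovered from them. Markers of undifferentiated spermatogonia and germ cells were present in both lines (9 of 10 listed genes had a level, summed FPKM of 1362 and 1650), with Nanos2 at 27.5 and 23.8. Uchl1 gave 806 and 820 of these sums. Gfra1 (56.2 and 111), Ret (73.2 and 181) and Etv5 (46.0 and 178) were higher in the Nanos2TAG/TAG library, whereas 4 of the 9, Nanos2 among them, were lower. The 3 listed markers of differentiating spermatogonia, Kit, Stra8 and Sohlh1, were all lower there, with sums of 63.6 and 47.3 FPKM. Fibroblast genes were present too, with 9 of 10 listed genes summing to 324 and 394 FPKM, of which Fn1 gave 254 and 280. 1 of these 9 was lower in the Nanos2TAG/TAG library. The sort named in the methods gated the cells away from residual feeders. The part of feeder RNA in the levels below was not tested.

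The 3′ UTRs of the SR and core snRNP families differ in length. The windows below show, for SR mRNAs and Snrpb2, the 7-base NANOS2 motif (AUNAANU with G or U in the third place and A or U in the sixth, searched on the sense strand). Of the 10 SR mRNAs with a half-life, 6 held the motif, as did Srsf12, which had no half-life. Of the 11 core snRNP mRNAs, 2 held it, Snrpb2 and Snrpd1. Among all 5755 transcripts with a half-life and an annotated 3′ UTR, 41.8% did. 1 window is shown for each of these SR mRNAs and for Snrpb2, the one nearest the stop codon, with the motif in capitals and 9 bases on each side. Coordinates are of GRCm38, and each window lies in the 3′ UTR, in the last exon of the chosen transcript.
Srsf1, chr11:88050114-88050138, plus strand: uugucacagAUGAAAUuggcaguau
Srsf3, chr17:29042714-29042738, plus strand: ugcaacuagAUUAAAUcauaaugca
Srsf4, chr4:131901661-131901685, plus strand: ccuguuuccAUUAAAUuugaauaaa
Srsf5, chr12:80950144-80950168, plus strand: acuaauuguAUUAAAUgucuuuuga
Srsf6, chr2:162936700-162936724, plus strand: acccuaguuAUUAAAUgcacuaaac
Srsf10, chr4:135867524-135867548, plus strand: cugucucaaAUUAAAUuggauggua
Srsf12, chr4:33231593-33231617, plus strand: uacuuagguAUUAAAUauugccaau
Snrpb2, chr2:143071687-143071711, plus strand: ugcugaacuAUGAAAUacggagccu

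Srsf1 held 4 matches in a 3′ UTR of 4149 nt, whereas Srsf4 held 1 in 634 nt, 30 nt before the end of the annotated 3′ UTR. Per length the families were close, with 0.54 matches per kb in SR, 0.45 in core snRNP and 0.49 in all 3′ UTRs. The core snRNP rate rests on few matches, 2 in Snrpd1 and 1 in Snrpb2. The median 3′ UTR was 1502 nt in SR, 360 nt in core snRNP and 1219 nt in all. A match is a run of letters and not a site of binding, and the CRAC libraries were not analysed here.

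Of the 10 SR protein mRNAs, 6 had half-lives above the median of all transcripts in both lines, and only Srsf9 was among the longest decile in both lines. The SR median was 251 and 284 min, beside 224 and 226 min over all 5806 transcripts. Srsf9, a regulator of alternative splicing, stood apart at 608 and 705 min. Srsf2 (316 and 416 min) and Srsf3 (363 and 313 min), whose proteins bind exonic enhancers, came next. These 3 were in the highest quartile of all transcripts in both lines, a place held by 19.1% of all transcripts.

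The other 7 SR mRNAs lay lower. Srsf1, the founding member of the family, had 225 and 331 min. Srsf6 had 272 and 304 min and Srsf7 249 and 264 min, both near the family's median. Srsf4 (216 and 221 min) was below the median of all transcripts in both lines, and the only SR mRNA that was. Srsf5 had 203 and 244 min. Srsf10, a splicing repressor when dephosphorylated, had 253 and 165 min, and Srsf11 had 160 and 258 min, so their order was reversed between the lines. The Srsf10 values are given with caution, since 67.6% of the 50-base stretches over all its exons occur once in the genome. Its 3′ end, from which the half-lives were read, was not examined alone. No SR mRNA was in the lowest quartile in both lines, where 15.6% of all transcripts were.

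Core snRNP mRNAs were long-lived in both lines. All 11 were above the median of all transcripts in both lines (39.8% of all transcripts), and 9 were in the highest quartile in both (19.1% of all). The 7 Sm ring mRNAs had a median of 460 and 428 min. Snrpe (584 and 609 min) and Snrpg (550 and 581 min) were the longest of the ring in both lines. Snrpd2 had 474 and 508 min, Snrpb 460 and 428 min, and Snrpd3 324 and 371 min. Snrpf (341 and 288 min) and Snrpd1 (282 and 274 min) were the shortest of the ring in the Nanos2TAG/TAG line, and neither reached the highest quartile there.

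The subunits particular to U1 and U2 were in the range of the Sm ring apart from Snrpb2 in the Nanos2TAG/TAG line. The U1 subunits were Snrpa, which binds a stem loop of U1 RNA, at 444 and 464 min, and Snrpc, which steadies pairing with the 5′ splice site, at 421 and 585 min. The U2 subunits bind U2 RNA as a pair, and their mRNAs had 297 and 413 min (Snrpa1) and 449 and 828 min (Snrpb2). Snrpb2 in the Nanos2TAG/TAG line was the longest value of the family, at a level of 1.76 FPKM there.

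**Figure D1:**
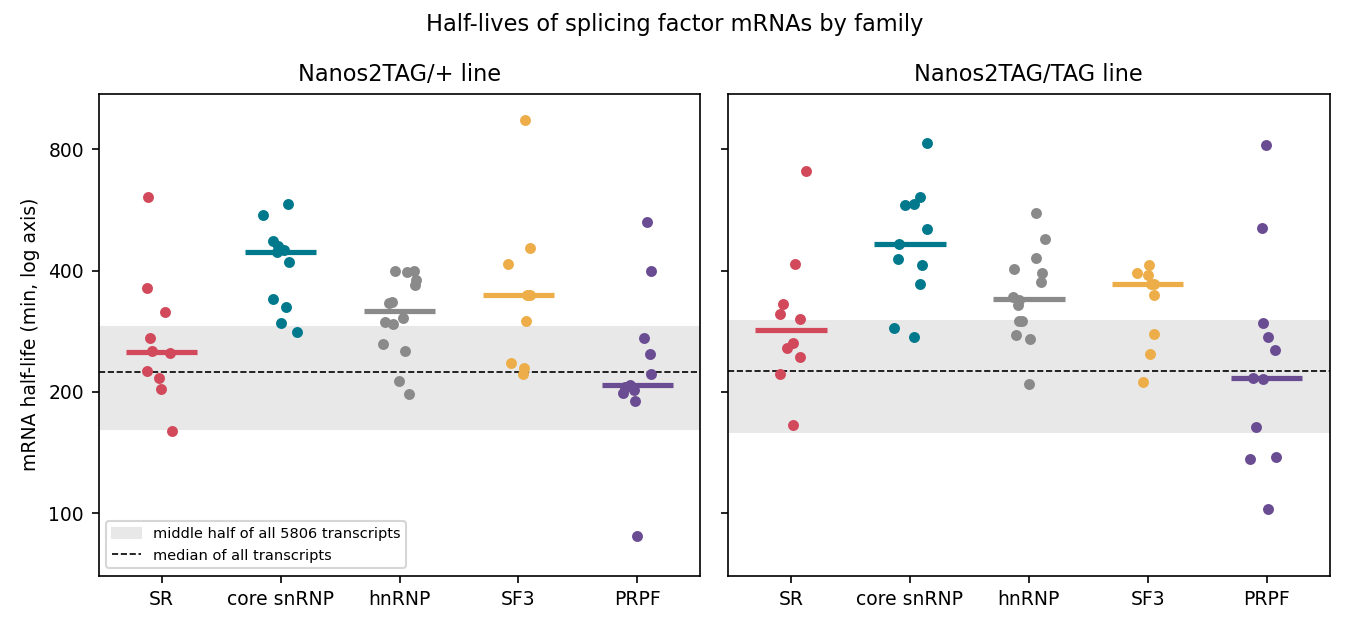
Half-lives in minutes (log axis) of the 55 members with a value, by family, in the Nanos2TAG/+ line (left) and the Nanos2TAG/TAG line (right). Each point is 1 mRNA, thick bars are family medians, the grey band spans the lower to the upper quartile of all 5806 transcripts and the dashed line is their median. All 11 core snRNP points lie above the dashed line in both lines, and the PRPF median lies just below it.

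The median half-life of core snRNP mRNAs was 444 and 464 min, which was longer than that of SR mRNAs by 193 min in the Nanos2TAG/+ line and 180 min in the Nanos2TAG/TAG line. The ratio of the medians was 1.77 and 1.63. With transcripts over 540 min in either line left out, the difference was 91.7 and 149 min. The families overlapped. 1 SR mRNA, Srsf9, was above the core snRNP median in both lines, and 3 and 5 SR mRNAs were above the shortest core snRNP mRNA. Conversely, 0 and 1 of the core snRNP mRNAs were below the SR median, the 1 being Snrpd1.

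Over all transcripts, half-life rose with level, from a median of 149 and 152 min in the lowest decile by mean FPKM to 339 and 365 min in the highest (Spearman's rho = 0.51 across 5152 transcripts, which are not independent replicates and share the libraries). Across the 47 members with both values rho was 0.23. The families were therefore also placed among transcripts of like level, as the percentile of each half-life within its decile by mean FPKM. On this scale the median of the 9 core snRNP mRNAs with a level exceeded that of the 8 SR mRNAs by 47.1 and 31.3 percentile points, beside 36.1 and 22.0 points when all transcripts with a level were ranked together. 7 core snRNP mRNAs and 1 SR mRNA (Srsf9) were in the highest quartile of their decile in both lines. Srsf4 was the 1 SR mRNA in the lowest quartile of its decile in both lines. For these places within deciles the share of all transcripts was not computed. Snrpe at 99.2 and 98.6, Snrpb2 at 98.4 and 98.8 and Snrpf at 96.1 and 91.5 were the highest core snRNP mRNAs in the Nanos2TAG/+ line, all with low levels for the family. Their levels came from few reads, 100 and 60 for Snrpe, 67 and 24 for Snrpb2 and 20 and 26 for Snrpf. A level read too low would place an mRNA in a decile of shorter half-lives, and this was not tested.

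**Figure D2:**
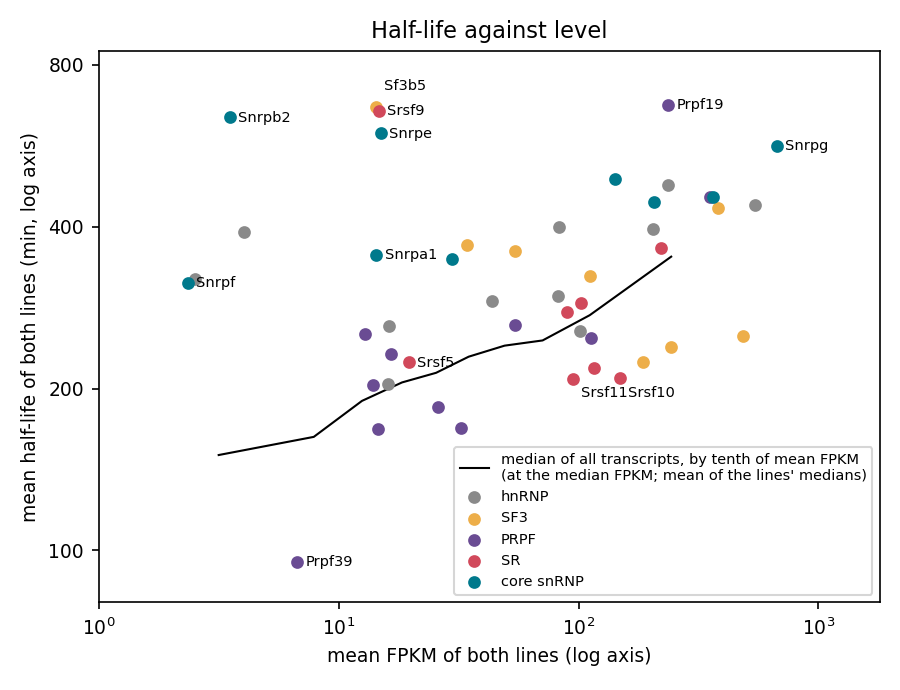
Mean half-life of both lines in minutes against mean FPKM of both lines (both axes log) for the 47 members with both values, coloured by family. The black line joins the median half-lives of all transcripts in deciles of mean FPKM. Snrpb2, Snrpe and Srsf9 lie far above the line at low levels, and Srsf10 and Srsf11 lie below it.

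Among hnRNP mRNAs, 9 of 14 were in the highest quartile in both lines, and the family median was 318 and 341 min. The 3 longest were Hnrnpl (400 and 555 min), which binds CA-rich RNA, Hnrnpk (396 and 480 min), which binds C-rich RNA, and Hnrnpu (369 and 430 min), a nuclear scaffold protein. The 3 shortest were Hnrnph1 (198 and 210 min) and Hnrnpf (213 and 300 min), related proteins that bind G-rich RNA, and Hnrnpr (252 and 270 min). The Hnrnpf values are given with caution, since 33.2% of the 50-base stretches over all its exons occur once in the genome. This share was 49.8% for Hnrnpa1 and 68.2% for Hnrnpc, both in the highest quartile in both lines. The 3′ ends, from which half-lives were read, were not examined alone.

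The SF3 median was 348 and 370 min, and 6 of 9 mRNAs were in the highest quartile in both lines. Sf3b5, a small SF3b subunit, had 943 and 394 min, Sf3b3, a scaffold of the complex, had 455 and 412 min, and Sf3b2, which contacts the RNA near the branch point, had 414 and 370 min. The 3 shortest were Sf3a1 (222 and 279 min) and Sf3a2 (236 and 211 min) of the SF3a complex and Sf3b4 (229 and 248 min), of whose 50-base stretches 50.8% are unique. In the Nanos2TAG/TAG line no SF3 mRNA exceeded 412 min, so the 943 min of Sf3b5 stood alone.

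PRPF mRNAs ran from 87.9 to 527 min and from 102 to 821 min, around a median of 208 and 216 min. Prpf19, a ubiquitin ligase of the activated spliceosome, had 527 and 821 min, and Prpf8, the U5 protein at the centre of the spliceosome, had 398 and 509 min. These were the 2 PRPF mRNAs of 11 in the highest quartile in both lines. Prpf40b, a U1-associated protein gene, was the next by mean of both lines at 273 and 253 min. Prpf39, also associated with U1, had 87.9 and 102 min, the lowest of the 55 members in both lines and the 1 member in the lowest quartile in both. Prpf31 (199 and 138 min), a tri-snRNP assembly factor, and Prpf38b (202 and 136 min) were the next shortest by mean.

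Taking all 55 members, 29 (52.7%) were in the highest quartile in both lines and 39 (70.9%) were above the median in both, beside 19.1% and 39.8% of all transcripts. Among transcripts of like level, that is within deciles of FPKM, 15 of the 47 members with a level were in the highest quartile in both lines and 5 were in the lowest. The share of all transcripts in these places within deciles was not computed, and the 19.1% above is not its equal. Of the 29, 9 were core snRNP, 9 hnRNP, 6 SF3, 3 SR and 2 PRPF. The members ranked alike in both lines (rho = 0.88 across 55, beside 0.77 across all 5806 transcripts).

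Features of the annotated mRNAs differed between the families. SR mRNAs had a median coding length of 732 nt and core snRNP mRNAs 381 nt, stop codon included, beside 1419 nt over all. The longest core snRNP 3′ UTR was that of Snrpd3 (2059 nt) and the shortest was that of Snrpe (150 nt). In the SR family Srsf9, the longest-lived, had the shortest 3′ UTR, 361 nt, and Srsf1 the longest. Srsf5 (529 nt) and Srsf4 (634 nt) had short 3′ UTRs and half-lives below the SR median in both lines. Across the 55 members rho between 3′ UTR length and mean half-life was -0.39, and across 5755 transcripts it was -0.28.

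**Figure D3:**
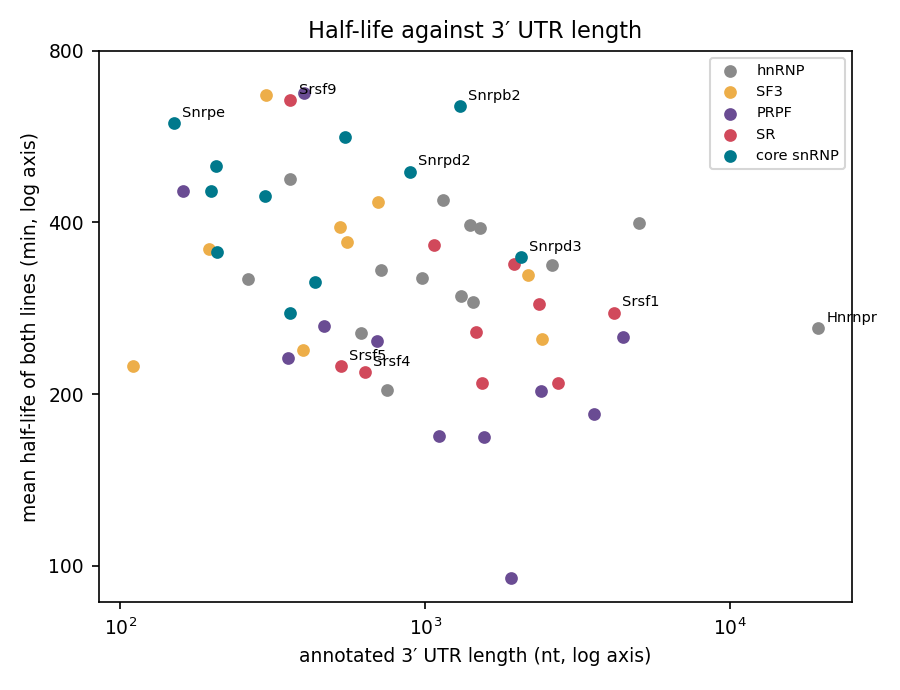
Mean half-life of both lines in minutes against annotated 3′ UTR length in nt (both axes log) for the 55 members, coloured by family. Core snRNP mRNAs lie mostly to the left of SR mRNAs, Srsf9 lies among core snRNP mRNAs, and Snrpd3 lies among SR mRNAs.

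A transcript annotated as a target of nonsense-mediated decay was present for 9 of the 10 SR genes, all but Srsf10, for 4 of 11 core snRNP genes (Snrpa, Snrpa1, Snrpb and Snrpe), and for 30.3% of all genes with a half-life. It was present for 7 of 14 hnRNP, 6 of 11 PRPF and 1 of 9 SF3 genes. The median number of annotated transcripts per gene was 7.5 in SR, 5 in core snRNP and 5 over all. The part of this number in these shares was not tested. Half-lives were given per gene, so the isoforms were not resolved. The AU-rich element UAUUUAU was in 2 of 10 SR and 3 of 11 core snRNP 3′ UTRs and in 32.5% of all. The Pumilio element UGUANAUA was in 2 of 10 and 2 of 11, and in 29.7% of all. Since the 3′ UTRs differ in length, these shares are not alike in base. Per kb of 3′ UTR the AU-rich element had 0.18 matches in SR, 0.45 in core snRNP and 0.29 in all. These family rates rest on few matches, 2 in Srsf10 and 1 in Srsf7, and 1 each in Snrpb2, Snrpd3 and Snrpg. The Pumilio element had 0.30, 0.30 and 0.26.

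By level, the SR median was 96.1 and 103 FPKM and the core snRNP median was 34.9 and 24.4 FPKM, beside 10.2 and 10.5 FPKM over all 13904 genes. The Sm ring alone had a median of 100.5 and 70.5 FPKM, so in the Nanos2TAG/+ line it was above the SR median. As geometric means the families were closer, at 50.4 and 48.2 FPKM for SR and 47.4 and 35.1 FPKM for core snRNP. 6 of the 9 SR mRNAs were at 80.8 FPKM or more in both lines. Srsf2 was the highest at 185 and 256 FPKM, Srsf10 had 162 and 136, and Srsf4 115 and 116. Srsf1 (98.7 and 80.8), Srsf6 (96.1 and 108) and Srsf11 (86.7 and 103) followed. The Srsf10 levels are given with caution too, since 67.6% of the stretches of its exons are unique, and the effect on them was not tested. Srsf5 (26.3 and 12.9), Srsf9 (12.5 and 16.9) and Srsf12 (2.14 and 1.67) were the 3 lowest, and Srsf12, from 44 and 37 reads, was the lowest of all 56 members by mean FPKM.

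Core snRNP levels spread over a wider range, although the Sm proteins assemble in equal numbers. Snrpg had 788 and 555 FPKM, the highest mean of all members, Snrpb had 200 and 214 FPKM and Snrpd2 had 166 and 117 FPKM. Snrpd3 had 34.9 and 24.4 FPKM, Snrpe 19.3 and 10.7 FPKM, and Snrpf 2.13 and 2.57 FPKM, from 20 and 26 reads. Snrpa, of U1, had 323 and 400 FPKM and the U2 subunits much less, with 17.7 and 11.0 FPKM for Snrpa1 and 5.29 and 1.76 FPKM for Snrpb2. The share of 50-base stretches of the exons that occur once in the genome was 83.8% for Snrpf and 85.9% for Snrpg, and how reads from like copies affected these levels was not tested. No FPKM was used here for Snrpc, Snrpd1, Srsf3 and Srsf7.

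The other members with the highest mean FPKM were Hnrnpk (548 and 536), Sf3a1 (438 and 532), Sf3b3 (385 and 376) and Snrpa. No member was listed at 0 in either line. Sf3b5, at 12.7 and 15.9 FPKM, came from 533 and 719 reads, and its annotated transcript is 3841 nt long with a coding length of 261 nt.

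Between the lines, 10 of the 56 members (17.9%) had an FPKM more than 1.5-fold lower in the Nanos2TAG/TAG library, beside 18.6% of the 12546 genes with a mean FPKM of at least 1. None was more than 1.5-fold higher, beside 20.8% of all, and the nearest was Prpf38b (26.1 and 38.7 FPKM). The share that was lower was near that of all genes. The members' median level was 50.5 and 47.7 FPKM, beside 10.2 and 10.5 FPKM over all 13904 genes. Shares past 1.5-fold among genes of like level were not computed. In these bulk libraries, fewer cells of a type and less RNA per cell cannot be told apart. The 10 were 4 of 17 hnRNP, 3 of 9 core snRNP and 1 each of the SR (9), SF3 (8) and PRPF (13) mRNAs. In any amount, 37 of 56 were lower in the Nanos2TAG/TAG library, beside 50.2% of all genes. This held for 6 of 9 core snRNP mRNAs (median log2 ratio -0.51), 14 of 17 hnRNP mRNAs (-0.37), 9 of 13 PRPF mRNAs (-0.29), 4 of 8 SF3 mRNAs (0.09) and 4 of 9 SR mRNAs (0.02).

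Snrpb2 differed the most, from 5.29 to 1.76 FPKM, a fold of 3.00 (95% interval 1.86 to 5.01, exact, from 67 and 24 reads and for counting error only). Sf3b6, which sits at the branch point adenosine, was 2.79-fold lower in the Nanos2TAG/TAG library (50.6 and 18.1 FPKM, interval 2.34 to 3.33). Of the other core snRNP mRNAs, Snrpe was 1.79-fold lower (interval 1.29 to 2.51) and Snrpa1 1.60-fold lower (interval 1.24 to 2.08). Srsf5 was 2.04-fold lower (interval 1.74 to 2.39) and was the 1 SR mRNA past the limit.

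Among hnRNP mRNAs, Hnrnpa0 was 2.29-fold lower (5.61 and 2.45 FPKM), Hnrnpa3 2.51-fold lower (15.8 and 6.31 FPKM), Hnrnpc, which binds U tracts, 1.76-fold lower (261 and 148 FPKM), and Hnrnpr 1.54-fold lower (19.6 and 12.7 FPKM). Unique 50-base stretches made up 17.4% in Hnrnpa3 and 68.2% in Hnrnpc, so both are given with caution, and the effect on their levels was not tested. Prpf39 was 1.66-fold lower (8.38 and 5.04 FPKM). These intervals do not hold the variation between cultures, for which there was no replicate.

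**Figure D4:**
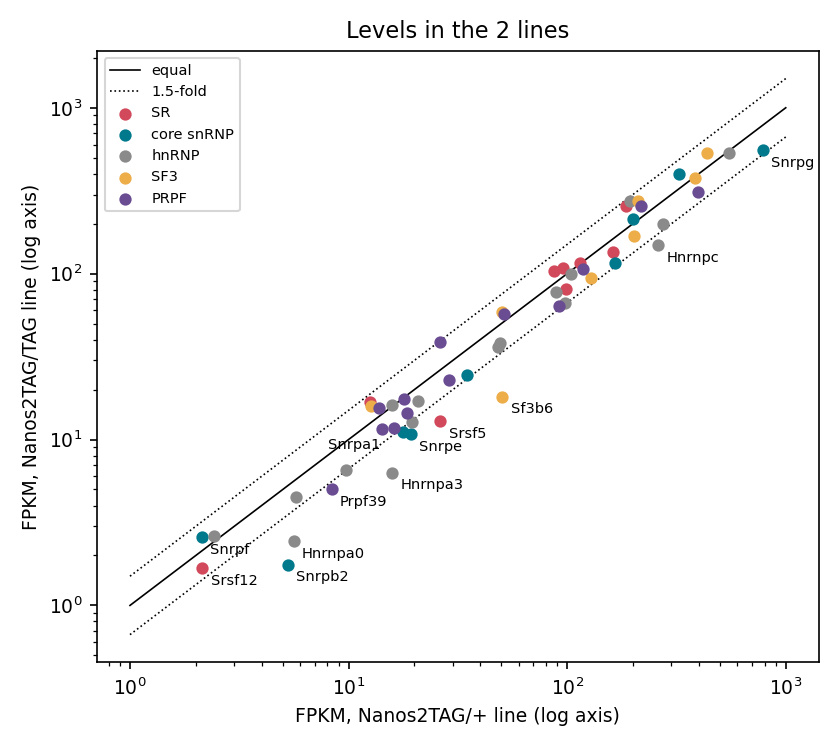
FPKM in the Nanos2TAG/TAG line against FPKM in the Nanos2TAG/+ line (both axes log) for the 56 members with a level, coloured by family. The solid line marks equal levels and the dotted lines a 1.5-fold difference. The 10 members below the lower dotted line include Snrpb2, Sf3b6, Hnrnpa3 and Srsf5, and none lies above the upper one.

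Transcript length moved with the ratio between the libraries over all genes (rho = 0.11 across 12514 genes), but rho was -0.0092 across the 56 members. In the shortest decile of genes, with mean transcript lengths up to 761 nt, the median log2 ratio was -0.26 and 37.6% were more than 1.5-fold lower in the Nanos2TAG/TAG library, whereas in the longest decile these were 0.08 and 10.4%. Snrpe (476 nt) and Snrpg (633 nt) were in the shortest decile, and Snrpa1 (802 nt), Sf3b6 (841 nt) and Snrpf (861 nt) in the next, where the median was -0.10. Snrpb2 (1161 nt), Srsf5 (1596 nt), Hnrnpa3 (1729 nt) and Hnrnpa0 (2678 nt) were in deciles with medians from -0.03 to 0.04. With genes under 1000 nt left out, an alternative chosen after seeing the data, 7 members were past the limit. The share of all genes past it under this filter was not computed. The part of length in these ratios was not tested.

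**Figure D5:**
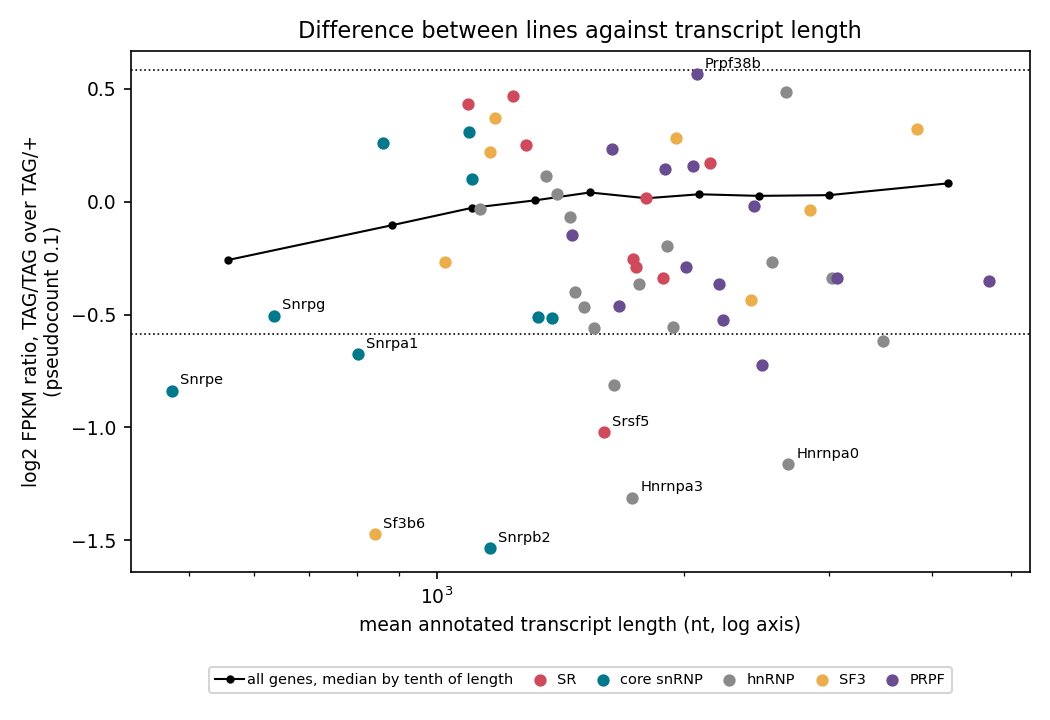
Log2 ratio of FPKM, Nanos2TAG/TAG over Nanos2TAG/+ with a pseudocount of 0.1, against mean annotated transcript length in nt (log axis) for 56 members, coloured by family. The black line joins the medians of all genes in deciles of length and the dotted lines mark 1.5-fold. The line is lowest at -0.26 for the shortest genes, and Snrpb2, Sf3b6, Hnrnpa3, Hnrnpa0 and Srsf5 lie at -1.02 or lower.

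Half-lives differed between the lines by more than 1.5-fold for few members. They were longer in the Nanos2TAG/TAG line for 3 of 55 (5.5%), beside 10% of all transcripts, and shorter for 2 of 55 (3.6%), beside 10.7%. Shares among transcripts of like level were not computed. The longer ones were Snrpb2 (1.84-fold), Srsf11 (1.61-fold) and Prpf19 (1.56-fold). The shorter ones were Sf3b5 (2.39-fold) and Srsf10 (1.53-fold). The Srsf10 ratio is given with caution, since 67.6% of the stretches over all its exons are unique, and its 3′ end was not examined alone. In any amount, 38 of 55 were longer in the Nanos2TAG/TAG line, beside 54.1% of all, and among these were 8 of 10 SR and 8 of 11 core snRNP mRNAs. Snrpb2 had a longer half-life and a lower FPKM in the Nanos2TAG/TAG line, and across the 47 members with both values the ratios of half-life and of level were related by rho = -0.12.

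Of the splicing genes outside the 5 families, 66 from a list had a value and 58 had a half-life. Their medians were 276 and 270 min, and 17 of 58 were in the highest quartile in both lines, beside 19.1% of all transcripts. The 3 longest by mean were Lsm4 (601 and 636 min), a subunit of the Lsm ring of U6, Acin1 (512 and 588 min), a protein that joins the exon junction complex, and Snrnp200 (498 and 574 min), the helicase that unwinds U4/U6. The 3 shortest were Clk4 (92.3 and 111 min), Snrnp48 (87.6 and 128 min), of the minor spliceosome, and Clk1 (117 and 126 min). Levels were more than 1.5-fold lower in the Nanos2TAG/TAG library for 8 of 56 (18.6% of all genes) and higher for 3 of 56 (20.8% of all genes).

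The mRNAs of kinases that phosphorylate SR proteins had a median half-life of 201 and 171 min over 6 genes, below the SR median in both lines. The Clk kinases, which act in the nucleus, included Clk2 at 190 and 154 min and Clk3 at 211 and 287 min in addition to the 2 above. Srpk1 had 289 and 187 min and Srpk2 267 and 258 min, and their products act mostly in the cytoplasm. Each of the 6 had a transcript annotated for nonsense-mediated decay, beside 30.3% of all genes with a half-life. Their median was 12 annotated transcripts per gene, beside 5 over all. Levels of the kinases ran from 8.68 and 6.56 FPKM (Clk1) to 104 and 72.5 FPKM (Srpk2), apart from Srpk3 at 1.28 and 0.06 FPKM, which is a muscle kinase and had no half-life here.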

How the data were processed

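Members and lists were chosen with earlier results of these data known. The authors deposited FPKM per gene for 1 ribosomal RNA-depleted library per line, and the submitters' processing notes name kallisto and DESeq2 among the tools. The columns were taken as Nanos2TAG/TAG and Nanos2TAG/+ from their names. Multiplying FPKM by the mean length of a gene's GENCODE M21 transcripts gave whole reads (within 0.02 reads) for 100% of 13867 genes. The scaling values were 10908790 and 11738620 reads, and the reads recovered summed to 10931439 and 11627842. In the Nanos2TAG/+ library the sum exceeded the scaling value, so the scaling values are not plain library depths. How they were set was not tested, and every ratio of levels rests on them. The other deposited tables held half-lives in minutes, fitted by the authors with SlamDunk conversion rates and nls over chases of 0, 30, 60, 120, 540 and 1440 min, in 12 libraries per line (3′ end sequencing), without error or depth. Their lines were taken from the names of the files given, whereas the labels tie the Nanos2TAG/+ libraries to a table called CTL and the Nanos2TAG/TAG libraries to one called EXP, so every half-life pair rests on this match of names. The 4 CRAC libraries were not analysed here.

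For log2 ratios 0.1 was added to each FPKM, and genes with a mean FPKM under 1 were left out. Quartiles and percentiles are among all transcripts with a half-life. 3′ UTRs are those of 1 coding transcript per gene (APPRIS principal where annotated) on GRCm38. For uniqueness, 50-mers were read from a gene's exons at steps of 10 bases, and those with 1 place in the genome were counted. Intervals of ratios are exact binomial ones at 95%. Genes were named by rule: all SR and core snRNP members, the 3 longest and 3 shortest half-lives of each other family, the 5 highest and the lowest mean FPKM, members past 1.5-fold or at 0, SR kinases, and the 3 longest and 3 shortest other splicing genes. Hnrnpa1 was named in addition, for its share of unique stretches. The alternatives were other folds, filters, pseudocounts, cut points and averages. The scripts were run on simulated data whose answers were set in advance. This checks the code and cannot show that the scaling values are library depths. Python 3.11.15, numpy 2.4.6, pandas 2.3.3 and scipy 1.17.1 were used.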

Additional observations from a re-analysis of the deposited data

How the results depend on the processing

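The core snRNP minus SR difference in median half-life stayed positive under every alternative run. In the Nanos2TAG/+ line, the Nanos2TAG/TAG line and the mean of both lines (192.96, 180.06 and 186.77 min as reported) it was 134, 164 and 149 min with means in place of medians, 209, 144 and 177 min with the Sm ring only, 91.7, 149 and 98.3 min with transcripts over 540 min left out, and 221, 183 and 203 min at 10 FPKM or more in both lines. With members of at least 80% unique 50-mers, chosen after seeing the data, it was 195, 160 and 176 min. With 2 lines, leaving out 1 only returns the value of the other (180 or 193 min), so it is no further check. The percentile difference rose from 36.1 to 47.1 points in the Nanos2TAG/+ line within deciles of FPKM. In the highest quartile, the 3 SR mRNAs became 1 with the highest decile and 1 within deciles of FPKM, and the 29 members became 10, 18 at 10 FPKM or more, and 15 within deciles. In the lowest quartile, SR went from 0 to 1 within deciles of FPKM, and all members from 1 to 0 at 10 FPKM or more and to 5 within deciles. With a fold of 2, members lower in FPKM went from 10 to 5, longer in half-life from 3 to 0 and shorter from 2 to 1. Under the other filters and scalings 7 to 10 members were lower in FPKM and none higher. For none of these changed counts was the share of all transcripts or genes computed, and the filters also change how many members are counted. The counts can therefore not be set against the shares given for the main settings. As a geometric mean SR was 50.4 and 48.2 FPKM and core snRNP 47.4 and 35.1 FPKM, and the Sm ring alone, with a median of 100.5 and 70.5 FPKM, was above the SR median in the Nanos2TAG/+ line.

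Half-lives came without error or depth. With 1 library and 1 fitted half-life per line, no difference between the lines has a replicate. No paired analysis was possible because each line gave 1 value and no test was run.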
